A study of Homo sapiens with 6 samples.

Results

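The Fanconi anemia (FA) and homologous recombination (HR) genes examined here are 39 genes, chosen by exact symbol, that encode the FA core complex, the FANCD2-FANCI complex, BRCA1, BRCA2 and their partners, strand exchange factors, enzymes that process DNA ends and joint molecules, and the checkpoint kinases with their partners. All 39 were found in the table of 41656 loci, of which 27678 carry a gene symbol and together hold 26822 distinct symbols. Each of the 39 lies in a single row, 36 of them in a row that lists only that symbol. The other 3 are in a row that lists another symbol too (RAD54B with FSBP, ATRIP with TREX1, RBBP8 with MIR4741). The span of a locus with a single listed symbol can still overlap other genes, as that of FANCA overlaps ZNF276. MCF10A is an established line of non-tumorigenic human breast epithelial cells. The cells received 30 nM of a pool of siRNAs against PAX9, a paired-box transcription factor (siPAX9), or of a non-targeting siRNA (siNT), and RNA was taken after 72 hours. There were 3 samples per group, 6 in all, and every sample was of the same cell line and the same time point.

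Values are FPKM (sequenced fragments corrected for transcript length and for the mapped reads of a library), which the authors pooled into 1 value per group and locus. There is therefore no spread between replicates and no test in this account, and every value below is a single pooled estimate. The table does not give the number of reads behind an FPKM. A change is given as log2 of siPAX9 over siNT, so -1.0 is a 2-fold lower value in siPAX9. A gene is counted as lower or higher when it differed at least 2-fold. The comparison set was the 12475 named loci with a mean FPKM of at least 1 and a value above 0 in both groups. All 39 genes met that minimum. PAX9, the targeted gene, went from 2.80 FPKM in siNT to 0.325 in siPAX9, a log2 change of -3.10, at a locus that overlaps SLC25A21.

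All 9 basal mammary markers looked at (keratins, integrins and TP63 among them) were at 1 FPKM or more in both groups, with a summed FPKM of 4166 in siNT and 5411 in siPAX9. The keratins KRT5, KRT6A and KRT17 carried most of the difference in the sum, while TP63 (35.4 and 25.3), ITGB4 and LAMB3 had lower values in siPAX9. Of the luminal markers, 4 of 7 reached 1 FPKM in each group (sum 271 and 188). The difference in that sum came from KRT18 (212 and 119), and KRT8, GATA3 and FOXA1 had higher values in siPAX9. For the cell types that a pure epithelial culture should lack, 1 of 6 fibroblast, 1 of 4 leukocyte and 1 of 5 endothelial markers reached 1 FPKM in each group. The fibroblast sum was 5.95 in siNT and 38.1 in siPAX9, nearly all of it DCN (5.85 and 37.9), while COL3A1 was listed at 0 in both groups. The leukocyte sum was 14.7 and 57.3, nearly all of it CD14 (14.4 and 56.5), with CD3E listed at 0. The endothelial sum was 3.95 and 2.49, mostly PECAM1 in siNT and KDR in siPAX9, with CDH5 listed at 0 in siNT. Their part in the values below was not tested.

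The FA pathway repairs interstrand crosslinks, lesions that join both strands of the double helix and stop replication forks. Its core complex, a ubiquitin ligase, is anchored to DNA and attaches ubiquitin to FANCD2 and FANCI, which recruits nucleases that unhook the crosslink. The resulting break is repaired by HR: the MRE11-RAD50-NBN complex and EXO1 resect the end, BRCA2 and the strand exchange factors lead the single strand into the sister duplex, and BLM or nucleases separate the joined molecules. HR needs a sister chromatid, and many of its genes are known to be expressed mainly in S and G2 phase under E2F-type transcription factors.

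Because of that known regulation, the RefSeq promoters of the genes (build GRCh38.p14, from 250 bases before to 50 after the start) were searched on both strands for the E2F-type words TTTCCCGC and TTTGGCGC, and also for TTTCGCGC as well as TTTGCCGC. A promoter was found for 35 of the 39 genes, and none was given for FANCI, RAD54B, NBN and RMI2. The stretches below run from 70 bases before to 30 after the start and are written in the direction of transcription. The word is in capitals, and it appears as its reverse complement where it lies on the other strand. They are shown because 4 belong to genes at least 2-fold lower in siPAX9 (FANCD2, XRCC2, MND1 and EXO1) and 3 to genes that hold such a word in the stretch but differed less than 2-fold (TOPBP1, RMI1 and FANCC). MND1 and RMI1 have more than 1 RefSeq start, and a start whose stretch holds the word is shown.
FANCD2 (chr3:10026367-10026466, plus strand): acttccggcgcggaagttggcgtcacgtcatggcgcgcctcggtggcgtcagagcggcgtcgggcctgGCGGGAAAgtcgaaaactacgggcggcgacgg
XRCC2 (chr7:152676112-152676211, minus strand): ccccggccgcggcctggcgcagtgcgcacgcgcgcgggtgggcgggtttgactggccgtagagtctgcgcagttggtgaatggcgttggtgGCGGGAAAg
MND1 (chr4:153344618-153344717, plus strand): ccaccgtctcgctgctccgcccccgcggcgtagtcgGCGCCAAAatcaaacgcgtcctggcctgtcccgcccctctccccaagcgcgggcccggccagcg
EXO1 (chr1:241848134-241848233, plus strand): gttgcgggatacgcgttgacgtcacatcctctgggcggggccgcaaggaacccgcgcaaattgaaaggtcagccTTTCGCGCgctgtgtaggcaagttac
TOPBP1 (chr3:133661912-133662011, minus strand): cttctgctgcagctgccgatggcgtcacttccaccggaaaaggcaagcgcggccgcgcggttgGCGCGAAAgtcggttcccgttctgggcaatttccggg
RMI1 (chr9:83980735-83980834, plus strand): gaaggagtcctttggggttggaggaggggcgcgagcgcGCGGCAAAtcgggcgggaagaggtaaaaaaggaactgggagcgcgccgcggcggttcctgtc
FANCC (chr9:95317680-95317779, minus strand): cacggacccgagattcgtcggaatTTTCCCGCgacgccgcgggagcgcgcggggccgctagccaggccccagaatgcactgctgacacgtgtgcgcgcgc

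Of the 39 genes, 16 (41.0%) were at least 2-fold lower in siPAX9 and 0 were at least 2-fold higher. With 1 FPKM added to both groups, 9 were at least 2-fold lower, beside 4.51% of named loci. At that setting BRCA2, BRIP1, RAD51AP1, BLM, BRCA1, FANCD2 and FANCI came short of the 2-fold limit. At a minimum mean of 5 FPKM, 2 of the 18 genes left were at least 2-fold lower, beside 5.36% of named loci, and the median log2 change was -0.38. Among all 12475 named loci, 6.55% (817) were at least 2-fold lower and 6.28% (783) at least 2-fold higher. The median log2 change of the 39 genes was -0.65 (quartiles -1.40 and -0.35), against -0.07 over the named loci (quartiles -0.41 and 0.28). Below 0 lay 36 of the 39 genes (92.3%) and 55.3% of the named loci. The 3 genes above 0 were FANCM, PALB2 and XRCC3. Between the 16 and these 3, another 6 genes had changes from -1.0 to -0.5 and 14 from -0.5 to 0. Nearest to the 2-fold limit were FANCI (-1.12) on the lower side of it and UBE2T (-0.96) on the other.

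**Figure D1:**
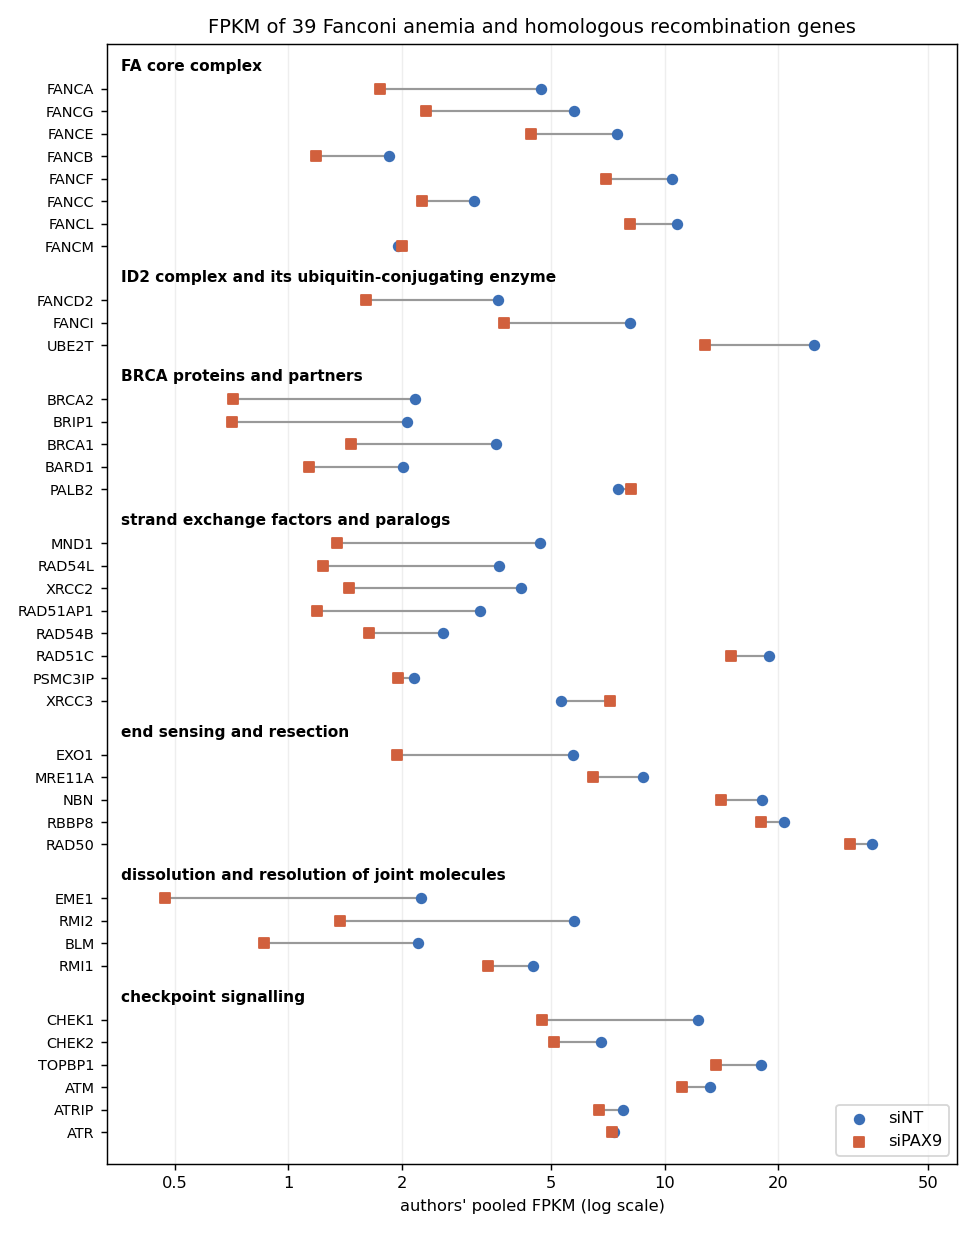
The authors' pooled FPKM of each of the 39 genes in siNT (circles) and siPAX9 (squares) on a log axis, grouped by role and ordered by change within each group; each point is 1 pooled value with no error. The square lies left of the circle for 36 genes and right of it for FANCM, PALB2 and XRCC3.

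The core complex of the FA pathway, the ubiquitin ligase, held 8 of the genes, and 2 of them were at least 2-fold lower. FANCA, the scaffold subunit most often mutated in FA patients (chr16:89773541-89883065 in hg19), had 4.70 FPKM in siNT and 1.76 in siPAX9, a log2 change of -1.42. FANCG, which binds FANCA directly (chr9:35073177-35080542), had 5.76 and 2.32 (-1.31). The other 6 core subunits differed less than 2-fold. FANCE, the subunit that contacts FANCD2, had 7.49 and 4.41 (-0.77), and FANCB 1.85 and 1.19 (-0.64). FANCF, an adaptor of the complex, had 10.5 and 6.99 (-0.59). FANCC, the partner of FANCE and FANCF, had 3.11 and 2.26 (-0.46), and FANCL, the subunit with the ligase activity, 10.8 and 8.11 (-0.41). FANCM, the translocase that brings the complex to DNA, had 1.96 and 2.01 (0.04). The 8 subunits of this complex thus had changes from -1.42 to 0.04, with a median of -0.61.

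The substrates of the ligase had log2 changes close to each other. FANCD2 (chr3:10068071-10149915), whose promoter stretch is printed above, had 3.62 in siNT and 1.61 in siPAX9 (-1.17). FANCI, its partner in the ID2 complex (chr15:89787194-89878026), had 8.10 and 3.74 (-1.12). The FPKM of FANCD2 was 0.447 of that of FANCI in siNT and 0.430 in siPAX9. UBE2T, the ubiquitin-conjugating enzyme that serves FANCL, had 24.97 and 12.8 (-0.96), just short of 2-fold. The enzyme's gene was the most abundant of these in both groups.

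Among BRCA1, BRCA2 and their partners, 3 of 5 were at least 2-fold lower, with a median of -1.28. BRCA2, which prepares single-stranded DNA for strand exchange (chr13:32889617-32973809), had 2.17 in siNT and 0.713 in siPAX9, a log2 change of -1.60. BRIP1, a helicase that binds BRCA1 (chr17:59756547-59940920), had 2.06 and 0.709 (-1.54). BRCA1, which promotes resection (chr17:41196312-41277500), had 3.56 and 1.47 (-1.28). BARD1, with which BRCA1 forms its stable heterodimer, had 2.01 and 1.14 (-0.83). PALB2, the bridge between BRCA1 and BRCA2, had 7.52 and 8.13 (0.11). PALB2 was thus the only gene of the 5 with a change above 0.

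Of the strand exchange factors and paralogs, 4 of 8 were at least 2-fold lower (median -1.04). MND1, which acts with PSMC3IP (also called HOP2) to stimulate strand exchange (chr4:154265801-154336247), had 4.66 and 1.35 (-1.79). RAD54L, a DNA translocase (chr1:46713367-46769038), had 3.64 and 1.23 (-1.56). XRCC2, a subunit of a paralog complex with RAD51C (chr7:152338211-152373250), had 4.16 and 1.45 (-1.52). RAD51AP1, which helps to capture the homologous duplex (chr12:4647950-4669213), had 3.24 and 1.19 (-1.44). The other 4 genes of this role differed less. RAD54B, related to RAD54L, had 2.57 and 1.64 (-0.65), and RAD51C, the paralog found in both paralog complexes, 18.98 and 15.0 (-0.34). PSMC3IP had 2.15 and 1.96 (-0.14). XRCC3, which pairs with RAD51C, had 5.31 and 7.16 (0.43), the highest change of the 39.

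End sensing and resection held 1 gene of 5 at least 2-fold lower. EXO1, the exonuclease of long-range resection (chr1:242011493-242054026), had 5.70 in siNT and 1.95 in siPAX9 (-1.55). MRE11A, the nuclease of the break-sensing complex, had 8.74 and 6.47 (-0.44). NBN, the subunit that recruits ATM, had 18.1 and 14.1 (-0.36). RBBP8 (CtIP), which starts resection with that complex, had 20.8 and 18.0 (-0.20), and RAD50, its ATPase, 35.6 and 31.1 (-0.19). The break-sensing genes thus had changes from -0.44 to -0.19.

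Of the genes for separating joined DNA molecules, 3 of 4 were at least 2-fold lower, with a median of -1.71, the lowest of the 7 roles. EME1, the non-catalytic subunit of the MUS81 nuclease (chr17:48450581-48474914), had 2.25 in siNT and 0.470 in siPAX9. Its change of -2.26 (20.9% of the siNT value) was the lowest of the 39 genes, at percentile 0.721 of the named loci. RMI2, a subunit of the BLM dissolution complex (chr16:11439295-11445620), had 5.75 and 1.37 (-2.07, 23.8% of siNT). BLM, the helicase of that complex (chr15:91260558-91358839), had 2.21 and 0.861 (-1.36). RMI1, another subunit of the complex, had 4.46 and 3.40 (-0.39). In siPAX9, EME1, BRCA2, BRIP1 and BLM were the 4 genes with an FPKM below 1, and 0 genes were below 1 in siNT.

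In checkpoint signalling, 1 of 6 genes was at least 2-fold lower (median -0.32). CHEK1, the effector kinase downstream of ATR (chr11:125495031-125550793), had 12.3 and 4.73 (-1.38). CHEK2, the effector kinase downstream of ATM, had 6.77 and 5.09 (-0.41). TOPBP1, an activator of ATR, had 18.0 and 13.7 (-0.40). ATM and ATR, the apical kinases, had 13.2 and 11.1 (-0.24), and 7.34 and 7.24 (-0.02). ATRIP, the obligate partner of ATR, had 7.74 and 6.69 (-0.21). The apical kinases and ATRIP thus lay between -0.24 and -0.02.

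Genes with a low level in siNT held more of the 2-fold lower values. The 16 genes at least 2-fold lower had siNT FPKM from 2.06 to 12.3 (median 3.90), and the other 23 from 1.85 to 35.6 (median 7.52). Of the 19 genes with the lowest siNT FPKM, 11 were at least 2-fold lower, and of the other 20 genes 5 were. Of the 10 genes with more than 10 FPKM in siNT, CHEK1 was the 1 gene at least 2-fold lower. Spearman's rho between siNT FPKM and log2 change was 0.36 over the 39 genes, which come from the same libraries and share the siNT value, so it is a description only. Among the 9853 named loci with a mean FPKM in the range of the 39 genes (1.36 to 33.3), 6.30% were at least 2-fold lower and 6.17% at least 2-fold higher, with a median of -0.05. This range was set after the values had been seen.

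**Figure D2:**
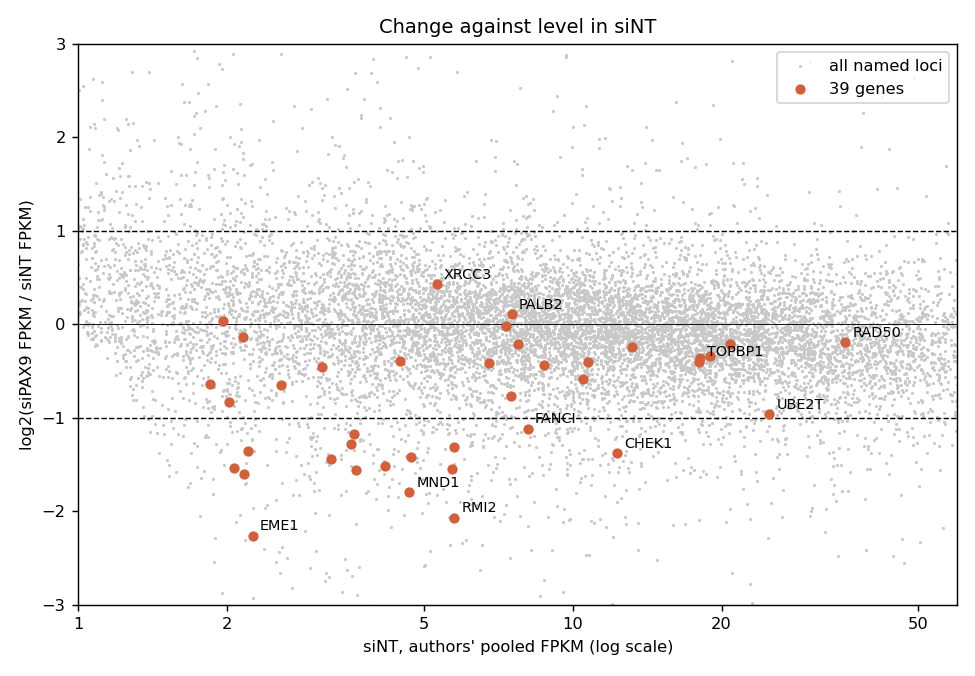
log2 change (siPAX9 over siNT) against siNT FPKM on a log axis for the 39 genes (large points) and the named loci (small points, those outside the plotted range not drawn); dashed lines mark 2-fold. The 2-fold lower genes lie between 2.06 and 12.3 FPKM in siNT, and RAD50, at 35.6, lies at -0.19.

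Several proteins of the list act as complexes, and the genes of partners were set side by side. The largest gap among the pairs was that of EME1 and its catalytic partner MUS81 (8.52 and 7.33, -0.22), a gene named after its value was seen. The FPKM of EME1 was 0.264 of that of MUS81 in siNT and 0.0641 in siPAX9, a difference of -2.04 in log2 change. BRCA2 and PALB2 differed by -1.72, RMI2 and RMI1 by -1.68, and MND1 and PSMC3IP by -1.66. In each of these pairs the first gene was at least 2-fold lower and the second changed less than 2-fold. RMI2 was 1.29 times RMI1 in siNT and 0.403 times in siPAX9, and MND1 was 2.16 and 0.687 times PSMC3IP, so the order of the partners was reversed. MND1 and PSMC3IP share 90.3% and 57.2% of their exon bases with other gene models, so the ratio of this pair is uncertain. CHEK1 and CHEK2 also changed places, with ratios of 1.82 and 0.930. BLM and TOP3A, the topoisomerase of the dissolution complex (5.52 and 4.86, -0.18, also named after its value was seen), differed by -1.17. XRCC2 and RAD51C, members of a paralog complex, differed by -1.18. RAD54L and RAD54B differed by -0.92 and BRCA1 and BARD1 by -0.45. For FANCD2 and FANCI (-0.06), RAD50 and NBN (0.17) and ATR and ATRIP (0.19), the gaps were small. The pair XRCC3 and RAD51C had a gap in the other direction (0.77), with XRCC3 at 0.280 of RAD51C in siNT and 0.476 in siPAX9. No error can be attached to any of these differences.

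**Figure D3:**
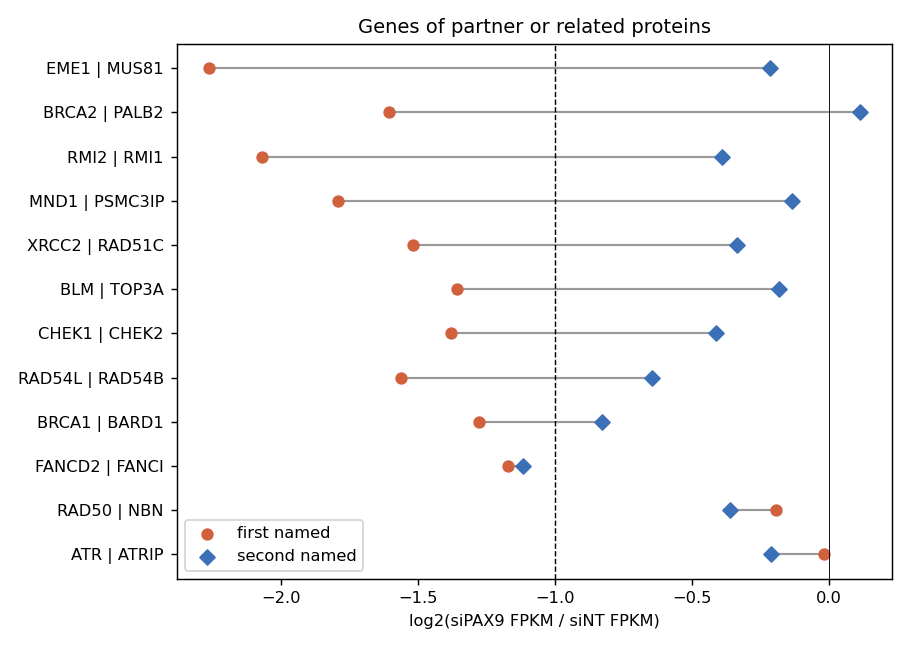
log2 change (siPAX9 over siNT) of the first (circles) and second (diamonds) gene of 12 pairs of partner or related proteins; the dashed line marks 2-fold lower. EME1 minus MUS81 is -2.04, the widest gap drawn, and FANCD2 minus FANCI is -0.06.

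The other genes of the pathway were counted from a list of 65 symbols, of which 58 were in the table and 57 passed the minimum FPKM. At least 2-fold lower were 6 of the 57 (10.5%), 1 was at least 2-fold higher, and the median was -0.28. Among all named loci, 6.55% were at least 2-fold lower and 6.28% at least 2-fold higher, so the counts here and per list below are small beside these shares. Among the other strand exchange genes, 1 of 10 was lower and 1 higher (median -0.35). PARPBP, which is known to restrain recombination, had 8.21 in siNT and 3.56 in siPAX9 (-1.20). SWI5, a subunit of a strand exchange mediator, had 3.47 and 8.41 (1.28). Of the other FA genes 1 of 13 was lower (median -0.36), MAD2L2, a subunit of a translesion polymerase, with 12.9 and 6.32 (-1.03). Of the other resection and resolution genes 3 of 15 were lower (median -0.26). The helicase RECQL4 had 8.93 and 3.997 (-1.16), and POLQ, the polymerase of microhomology-mediated end joining, 2.00 and 0.822 (-1.28). The third, RTEL1, had 140 and 13.7 (-3.35) at a locus that also holds TNFRSF6B, so its own level cannot be told apart from that of its neighbour. Of the other checkpoint and BRCA1 complex genes 1 of 19 was lower (median -0.26), CLSPN, which brings CHEK1 to ATR, with 1.46 and 0.726 (-1.004).

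Other DNA repair pathways were counted in the same way. Non-homologous end joining had 0 of 10 genes at least 2-fold lower (median -0.33), mismatch repair 0 of 7 (-0.41) and nucleotide excision repair 0 of 17 (-0.13). Over the 34 genes of these pathways, 0 were at least 2-fold lower and 1 higher, ERCC6 (4.89 and 11.8, 1.28), whose locus also holds PGBD3. The median of the 34 was -0.32, and 6.55% of all named loci were at least 2-fold lower. Their median siNT FPKM was 10.6, against 5.70 for the 39 genes, so the lists also differ in level. Of 30 genes of the replication fork and origin, 13 (43.3%) were at least 2-fold lower and 0 at least 2-fold higher, with a median of -0.96. CDT1, which loads the replicative helicase, had 10.8 and 1.95 (-2.46), and PRIM1, the primase, 6.93 and 1.67 (-2.06). RFC3 (-1.64) and MCM2 (-1.56) followed. Of 10 proliferation markers 8 were lower (median -1.62), among them TOP2A (39.3 and 7.37, -2.41), BIRC5 (-2.09), AURKB (-2.06) and CCNB1 (-1.78). The other 2 differed less than 2-fold: RRM2 had 10.4 in siNT and 8.55 in siPAX9 (-0.29), and CCNE2 1.21 and 1.51 (0.32). Of 17 E2F, RB and FOXM1 regulators with enough signal, 4 were lower (median -0.53): FOXM1 (-1.67), MYBL2 (-1.48), RBL1 (-1.11) and E2F5 (-1.06). In bulk RNA, fewer cells in S or G2 phase and less of an mRNA per cell cannot be told apart, and the proliferation markers moved with the 39 genes. Their part in the result was not tested.

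**Figure D4:**
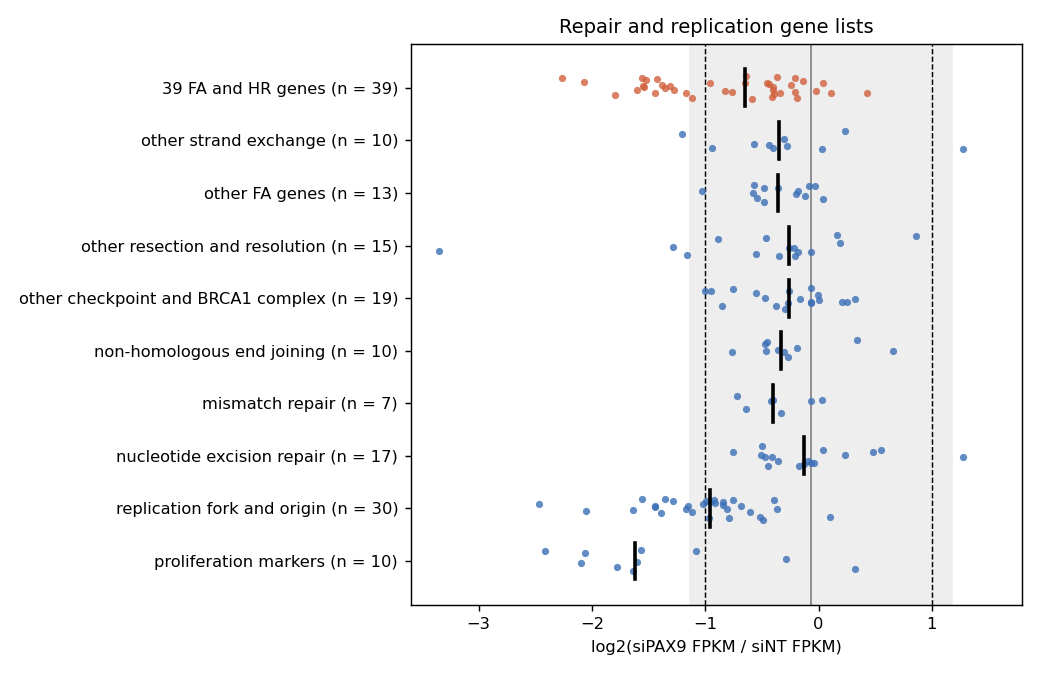
log2 change (siPAX9 over siNT) of each gene (points) and the median (bar) for the 39 genes and for other repair and replication lists; the shaded band runs from the 5th to the 95th percentile of the named loci (-1.14 to 1.18), the grey line is their median and the dashed lines mark 2-fold. The replication list (-0.96) and the proliferation markers (-1.62) have medians below that of the 39 genes (-0.65), and the other lists have medians from -0.41 to -0.13.

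An E2F-type word was found in the promoters of 9 of the 35 genes with a RefSeq promoter (25.7%). Of the genes at least 2-fold lower it was in 5 of 14 (EXO1, FANCA, FANCD2, MND1 and XRCC2), and of the other genes in 4 of 21 (FANCC, PSMC3IP, RMI1 and TOPBP1). A gene was counted where any of its RefSeq starts held a word, and the number of starts per gene was not matched. In PSMC3IP and RMI1 the word was not at every RefSeq start. The same words were in the promoters of 3.99% of the 27305 genes with a promoter and of 6.83% of the 9849 of these with a mean FPKM of at least 1. Of the replication genes at least 2-fold lower, 7 of 11 held them. On the strand of the gene, with the first transcribed base as 1, the word began at -2 in FANCD2, 22 in XRCC2 and -34 in MND1. A second word, TTTGAA, the core of the cell cycle homology region (CHR), was in 11.4% of the 35 promoters and in 13.9% of those of expressed genes. CCAAT, the site of the factor NF-Y, was in 51.4% and 43.8%. These are letter matches only, and none of them shows that a factor binds.

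Some of the genes start next to another gene that is transcribed in the opposite direction, and these neighbours share the region between the starts. With starts within 1000 bases and a mean FPKM of at least 1, there were 10 such pairs, and 0 of the 10 neighbours was 2-fold lower or higher, beside 6.55% and 6.28% of all named loci. Of these, 3 lay beside a gene that was at least 2-fold lower. EME1 and MRPL27, a mitochondrial ribosomal protein gene, start 45 bases apart, and MRPL27 had 58.8 in siNT and 62.2 in siPAX9 (0.08). RAD51AP1 and C12orf4 start 421 bases apart, and C12orf4 had 3.64 and 4.13 (0.18). BRCA1 and the noncoding NBR2 start 187 bases apart, and NBR2 had 4.99 and 6.31 (0.34). All 3 neighbours were above 0, and 55.3% of all named loci were below 0, so these counts are too small to set the neighbours apart from other loci. Just under the minimum FPKM lay another such pair, in which the neighbour was below 0. BLM and the noncoding CRTC3-AS1 start 205 bases apart, and CRTC3-AS1 had 1.30 and 0.689 (-0.91, mean FPKM 0.992). The 7 neighbours of the other genes had changes from -0.57 (HNRNPK, beside RMI1) to 0.14 (MOSPD2, beside FANCB), with a median of -0.07. They include NPAT beside ATM (3.94 and 4.19, 0.09), DCTN5 beside PALB2 (0.04), ZFYVE21 beside XRCC3 (-0.07), ANKRD49 beside MRE11A (-0.20) and HSCB beside CHEK2 (-0.53).

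**Figure D5:**
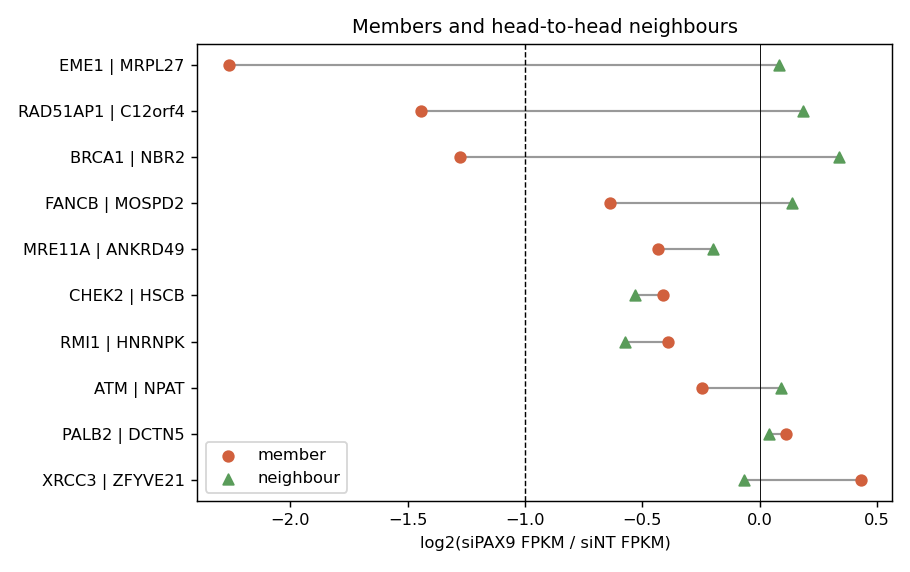
log2 change (siPAX9 over siNT) of a repair gene (circles) and of the gene that starts within 1000 bases on the opposite strand (triangles), for 10 pairs; the dashed line marks 2-fold lower. MRPL27, C12orf4 and NBR2 lie above 0 beside EME1, RAD51AP1 and BRCA1.

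Whether the authors' counting used the strand is not given in the sources used here, so reads of opposite genes with common exon bases cannot be told apart. In the GENCODE annotation of GRCh37, 57.2% of the exon bases of PSMC3IP are also exon bases of MLX on the other strand (41.0 in siNT and 22.4 in siPAX9, -0.87), 27.3% of those of FANCL belong also to VRK2 (-0.19) and 24.4% of those of FANCA to ZNF276 (18.99 and 21.3, 0.17). The share was 18.4% for RAD54L with LRRC41 (-0.22), 10.6% for EME1 with LRRC59 (59.5 and 51.0, -0.22) and 9.11% for FANCI with POLG (-0.15). These neighbours were looked up after the values of the 39 genes had been seen. The log2 changes of FANCA, FANCL, RAD54L, EME1 and FANCI were lower than those of their overlapping genes, and that of PSMC3IP was higher than that of MLX. On the same strand, ATRIP shares 24.0% of its exon bases with TREX1. MND1 shares 90.3%, RAD50 91.0% and FANCG 7.16% of theirs with a coding gene model that has no symbol in the annotation. Reads on these bases cannot be assigned to a single gene from the table, so the values of ATRIP, MND1, RAD50 and FANCG are uncertain to that extent.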

How the data were processed

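Poly(A)+ RNA of MCF10A cells was sequenced in 6 samples, 3 of siNT and 3 of siPAX9. Per the paper's methods and the labels, the authors sequenced single-end reads, aligned them with Bowtie 2 to the hg19 genome and estimated FPKM by Cufflinks, both run in Partek Flow. The versions of Bowtie 2 and Cufflinks and the normalization between libraries are not given in the sources used here. The authors deposited 1 table with 1 pooled FPKM per group and locus, so read numbers and replicate error were not available from it and no test could be run on it. The paper's methods give the range of total reads per sample, but not by group. Nothing in the labels says that the samples are separate cultures. The table also holds the authors' own fold changes, p-values, q-values and test status, which were not used.

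Changes were computed as log2 of siPAX9 over siNT from the deposited FPKM, with no pseudocount. Where a symbol had several rows, the row with the highest mean FPKM was kept. Loci with a mean FPKM of at least 1 and values above 0 were compared, and the 2-fold limit is the fold part of the study's thresholds. The 39 genes, the other lists and the limits were chosen with earlier results of these data known. Named were the 39 genes, up to 4 genes per other list past 2-fold, the divergent neighbours and PAX9. Among the listed genes, 2 outside the 39 are not reported here and were left out of the counts. MUS81, TOP3A, RRM2, CCNE2 and the overlapping genes were named after their values were seen, as were the cell type markers named singly. The GENCODE annotation lifted to GRCh37, which has the coordinates of hg19, gave exons and neighbours, and RefSeq (GRCh38.p14) gave promoters. Coordinates are 1-based, those of loci in hg19. The scripts were tested on simulated data and ran under Python 3.11.15 with numpy 2.4.6, pandas 2.3.3, scipy 1.17.1 and matplotlib 3.10.9. Alternatives were 1 or 0.1 FPKM added, centring on the median, summed rows, single-symbol loci, other minimum FPKM and a fold of 1.5.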

Additional observations from a re-analysis of the deposited data

How the results depend on the processing

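The count of 16 genes at least 2-fold lower was also 16 with 0.1 FPKM added and with log2 changes centred on the median of the named loci. Summing rows, keeping single-symbol loci (36 genes) and dropping the minimum FPKM could not change it, since each gene has 1 row, the 3 genes at shared loci are not among the 16 and all 39 pass the minimum. It was 9 with 1 FPKM added, where BRCA2, BRIP1, RAD51AP1, BLM, BRCA1, FANCD2 and FANCI came short of 2-fold, and 2 of the 18 genes left at a minimum mean of 5 FPKM, where fewer genes are counted. At 1.5-fold it was 22. No gene was higher under any of these settings. The median log2 change of the genes, -0.65, was -0.50 with 1 FPKM added, -0.62 with 0.1 added, -0.58 after centring, -0.80 at single-symbol loci and -0.38 at a minimum of 5 FPKM. Centring put ATR above 0 (0.05), which left 35 genes below 0. The share of named loci at least 2-fold lower, 6.55%, was 4.51% with 1 FPKM added, 5.74% after centring, 8.2% with no minimum, 5.36% at 5 FPKM and 16.4% at 1.5-fold. The share higher, 6.28%, was 4.22%, 6.96%, 14%, 3.77% and 13.1% in the same order. The median of the named loci, -0.07, was 0.011 with no minimum, -0.10 at 5 FPKM and -0.045 within the FPKM range of the 39 genes, a setting chosen after seeing the data. Where the construction of a setting does not show it, the cause was not tested. No paired analysis was possible because the table holds 1 pooled value per group, and leaving out a sample was not possible for the same reason. The table gives no reads per locus and no value per sample, so the precision of values near or below 1 FPKM cannot be stated from it.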
